A study of Mus musculus with 4 samples.

Results

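The 8 genes described here encode hormones of the Sertoli cell, binding proteins, and receptors for AMH and for follicle-stimulating hormone (FSH). *Amh* and its receptor *Amhr2* are among them, with the inhibin and activin subunits *Inha*, *Inhba* and *Inhbb*. The others are the activin-binding proteins *Fst* (follistatin) and *Fstl3*, and *Fshr*, the FSH receptor. The 8 genes were chosen by gene symbol from the 54920 genes listed for each library, and 8 of 8 were found and passed the expression filter. RNA-seq had been performed on ID4-EGFP+ cells, a fraction enriched for spermatogonial stem cells, sorted from the testis at postnatal day 8, and 2 control and 2 *Cnot3*-cKO libraries were analysed here, fewer per group than the replicates the study describes. Control mice carried *Cnot3* flox/flox and *Id4-eGfp* (labelled wild-type), and *Cnot3*-cKO mice carried *Cnot3* flox/flox, *Id4-eGfp* and *Ddx4*-creER, a Cre induced by 4-OHT and driven in germ cells. All mice of both groups had been injected with 4-OHT from day 1 to day 3. The sources do not state whether mice were pooled, so that p-values measure the spread between libraries.

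Sertoli cells are the somatic cells that enclose germ cells in the seminiferous tubule, and FSH from the pituitary acts on them through FSHR, a receptor coupled to cyclic AMP. AMH, made by Sertoli cells of the fetal and juvenile testis, causes regression of the Müllerian ducts and signals through AMHR2. A heterodimer of the inhibin alpha subunit and a beta subunit is an inhibin, which lowers pituitary FSH, whereas dimers of beta subunits are activins, which follistatin and FSTL3 bind and neutralize.

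Most of the 8 genes were higher in the ID4-EGFP+ fraction of *Cnot3*-cKO testes than in that of controls. Values given for *Cnot3*-cKO cells or for controls are for the whole sorted fraction, whose RNA also held somatic cell markers. Which cells of the fraction held the transcripts was not tested. Calls required more than a 2-fold difference and a p under 0.01 after Benjamini-Hochberg adjustment over 23952 genes in edgeR's quasi-likelihood test. *Amh*, *Amhr2*, *Inha*, *Inhba*, *Inhbb* and *Fshr* were called higher, which is 6 of 8, while 4.03% of all tested genes were called higher and 0.735% lower. *Fst* and *Fstl3*, the binding proteins, were not called. The median log2 fold change was 1.66 over the 8 genes and 0.01 over all tested genes. For 8 of 8, both *Cnot3*-cKO libraries lay above both control libraries, as was so for 30.5% of all tested genes, and 28.6% had both below. Libraries held 22192964 to 43378493 reads, and both *Cnot3*-cKO libraries were shallower than both controls. *Cnot3* itself, the targeted gene, had 58.6 and 50.2 CPM (reads per 1000000 of the TMM-scaled library) in the controls against 19.2 and 19.9 CPM in *Cnot3*-cKO cells, a log2 fold change of -1.48 (standard error 0.13, edgeR adjusted p = 1.48e-05). For a single gene, the smallest two-sided p of an exact permutation test with 2 libraries a group is 0.333, and each adjusted p rests on the dispersion fitted across genes.

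**Figure D1:**
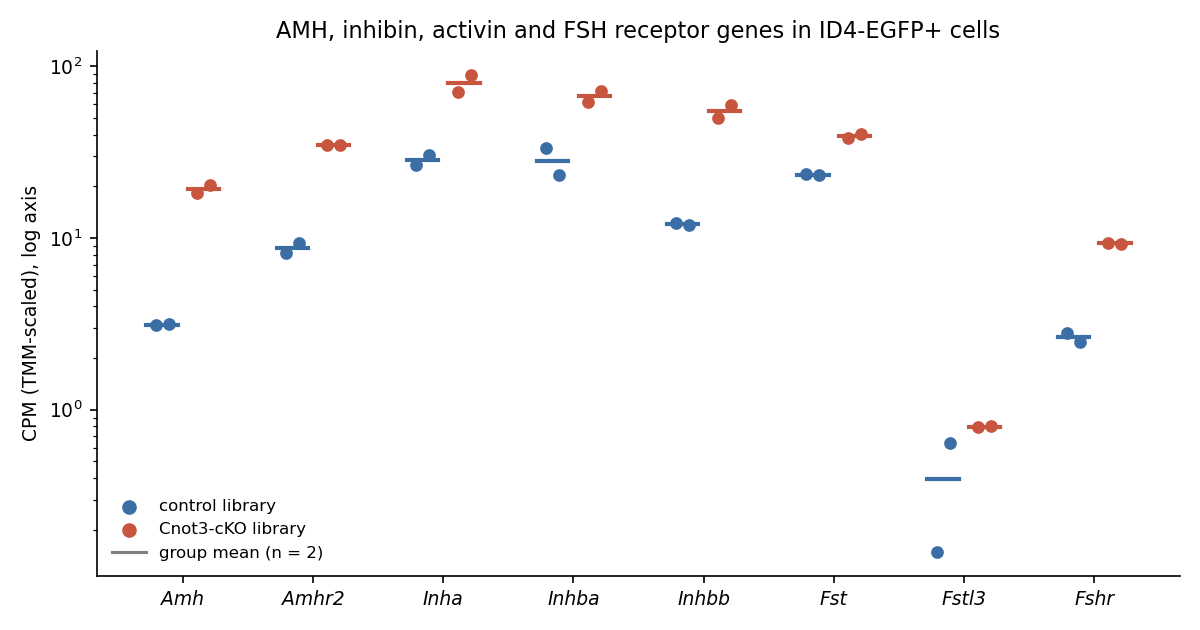
CPM (log axis) of the 8 genes in each library, with control libraries in blue, *Cnot3*-cKO libraries in red and a line at each group mean (n = 2). The groups are separate for each gene, with the smallest gap in *Fstl3*, where the nearest libraries are at 0.642 and 0.794 CPM.

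Promoter sequence is shown for *Amhr2*, *Fshr* and *Inhbb*, which are some of the genes called higher. *Inhba* was also called higher and is not shown, although its window overlaps no annotated exon. RefSeq (GRCm38.p6) gave an entry for 6 of the 8 genes, and 250 bases before the start were read, 5′ to 3′ on the strand of the gene. The windows lie at chr15:102445117-102445366 (forward strand) for *Amhr2*, chr17:89200676-89200925 (reverse strand) for *Fshr* and chr1:119422249-119422498 (reverse strand) for *Inhbb*. None of the 3 overlaps an annotated exon. Capitals mark matches on either strand to AAGGTCA (bound by NR5A1), AACAAT (SOX factors), GATAA (GATA factors), CANNTG (the E-box) or TGACG (part of the cyclic AMP response element).
Amhr2: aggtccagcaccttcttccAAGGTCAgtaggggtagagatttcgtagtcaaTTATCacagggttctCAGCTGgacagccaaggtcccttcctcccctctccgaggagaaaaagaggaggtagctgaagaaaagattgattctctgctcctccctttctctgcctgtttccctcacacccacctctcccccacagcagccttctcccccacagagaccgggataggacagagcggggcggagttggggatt
Fshr: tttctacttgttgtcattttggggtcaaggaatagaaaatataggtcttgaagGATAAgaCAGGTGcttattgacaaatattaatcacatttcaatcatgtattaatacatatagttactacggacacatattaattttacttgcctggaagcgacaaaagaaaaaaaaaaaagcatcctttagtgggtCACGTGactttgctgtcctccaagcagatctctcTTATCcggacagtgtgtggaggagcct
Inhbb: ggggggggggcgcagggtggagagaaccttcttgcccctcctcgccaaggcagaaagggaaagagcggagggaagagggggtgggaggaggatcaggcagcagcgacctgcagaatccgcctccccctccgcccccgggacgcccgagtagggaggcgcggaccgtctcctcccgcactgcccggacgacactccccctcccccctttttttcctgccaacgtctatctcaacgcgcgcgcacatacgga
The *Amhr2* window held 1 match to AAGGTCA, which 4.08% of 32817 promoter windows of this length hold, 1 to GATAA (22.6% of windows) and 1 to CANNTG (66.2%). The *Fshr* window held 2 matches to GATAA, at 197 and 27 bases before the start, and 2 to CANNTG, at 190 and 61 bases. No matches overlapped. AACAAT (9.42% of windows) and TGACG (17.7%) had no match in these 3 windows, and the *Inhbb* and *Inhba* windows held no match to any of the 5 motifs. The *Fstl3* window held 3 matches to CANNTG. The *Inha* window is not shown, because 160 of its bases lie in annotated exons of *Inha*.

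*Amh*, on chromosome 10 (80805243 to 80807648, forward strand, GRCm38), showed the largest log2 fold change of the 8 genes. It had 125 and 133 reads in the controls against 415 and 579 reads in the shallower *Cnot3*-cKO libraries, or 3.10 and 3.16 CPM against 18.3 and 20.2 CPM. The control libraries were nearly equal, and both *Cnot3*-cKO libraries were well above them. The mean was 3.13 ± 0.0407 CPM in the controls against 19.3 ± 1.34 CPM in *Cnot3*-cKO cells (SD, n = 2 per group). The log2 fold change was 2.62 (standard error 0.19, edgeR adjusted p = 4.21e-06), and 0.597% of tested genes had a larger one. *Sf3a2*, a splicing factor gene that ends 318 bases upstream of *Amh* on the same strand, had 20.5 and 21.1 CPM in the controls against 19.7 and 19.9 CPM in *Cnot3*-cKO cells.

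*Amhr2*, the type II receptor that gives AMH its specificity, lies on chromosome 15 (102445367 to 102454633, forward strand). Controls had 8.22 and 9.32 CPM and *Cnot3*-cKO libraries had 34.6 and 34.9 CPM. The *Cnot3*-cKO libraries differed from each other by less than the controls did. The log2 fold change was 1.99 (standard error 0.15, edgeR adjusted p = 4.86e-06). The hormone and its receptor thus were higher in the same 2 libraries, *Amh* by 6.15-fold and *Amhr2* by 3.96-fold.

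*Inha*, which encodes the alpha subunit found only in inhibins, lies on chromosome 1 (75507077 to 75510366, forward strand). It had 26.4 and 30.3 CPM in the controls against 70.6 and 89.3 CPM in *Cnot3*-cKO cells, with a log2 fold change of 1.495 (standard error 0.13, edgeR adjusted p = 1.62e-05). The spread between *Cnot3*-cKO libraries (SD 13.2 CPM) was larger than between controls (SD 2.77 CPM), and the groups remained apart.

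*Inhbb*, the beta B subunit of inhibin B and activin B, lies on the same chromosome (119415465 to 119422248, reverse strand). It had 12.2 and 11.9 CPM in the controls against 50.1 and 59.5 CPM in *Cnot3*-cKO cells. The log2 fold change was 2.18 (standard error 0.14, edgeR adjusted p = 1.50e-06), and by p it ranked 20 among all tested genes. *Inhbb* had the smallest p of the 8 genes.

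*Inhba*, the beta A subunit of inhibin A and activin A, lies on chromosome 13 (16011851 to 16031621, forward strand). It had 33.2 and 23.3 CPM in the controls against 61.8 and 71.7 CPM in *Cnot3*-cKO cells. Control replicate 1 was above control replicate 2 by more than for any other called gene of the 8, and it was nevertheless below both *Cnot3*-cKO libraries. The log2 fold change was 1.24 (standard error 0.16, edgeR adjusted p = 1.99e-04). Without control replicate 2 it was 0.9986, just under the 2-fold limit, and *Inhba* was not called.

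*Fst*, on chromosome 13 (114452290 to 114458951, reverse strand), had 23.6 and 23.2 CPM in the controls against 38.4 and 40.2 CPM in *Cnot3*-cKO cells. A log2 fold change of 0.75 (standard error 0.12, edgeR adjusted p = 0.00125, 95% interval 0.48 to 1.02) passed the limit on p but not the limit on fold change. The difference was larger than the spread between libraries, since the SD was 0.309 CPM in the controls against 1.24 CPM in *Cnot3*-cKO cells. *Gm47040*, an antisense gene, shares 115 exon bases with *Fst*, and held 3 to 19 reads per library against 870 to 1150 for *Fst*.

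*Fstl3*, on chromosome 10 (79777272 to 79782630, forward strand), was near the limit of detection. It had 6 and 27 reads in the controls against 18 and 23 reads in *Cnot3*-cKO cells, or 0.149 and 0.642 CPM against 0.794 and 0.803 CPM. The log2 fold change was 1.0 with a 95% interval from -0.55 to 2.56 (edgeR adjusted p = 0.375), and leaving out control replicate 1 or 2 gave 0.30 or 2.38. Of its 2445 exon bases, 1157 are shared with *Prss57* on the opposite strand, and whether counting used strand is not given in the sources used here. A difference in *Fstl3* was not detectable at this depth.

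*Fshr*, the G protein-coupled receptor that makes Sertoli cells responsive to FSH, lies on chromosome 17 (88984952 to 89200675, reverse strand). It had 113 and 104 reads in the controls against 213 and 265 reads in *Cnot3*-cKO cells, or 2.81 and 2.47 CPM against 9.40 and 9.25 CPM. Both groups were tight. The log2 fold change was 1.82 (standard error 0.23, edgeR adjusted p = 2.12e-04). *Fshr* was called higher from the lowest control level of the 6 called genes.

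**Figure D2:**
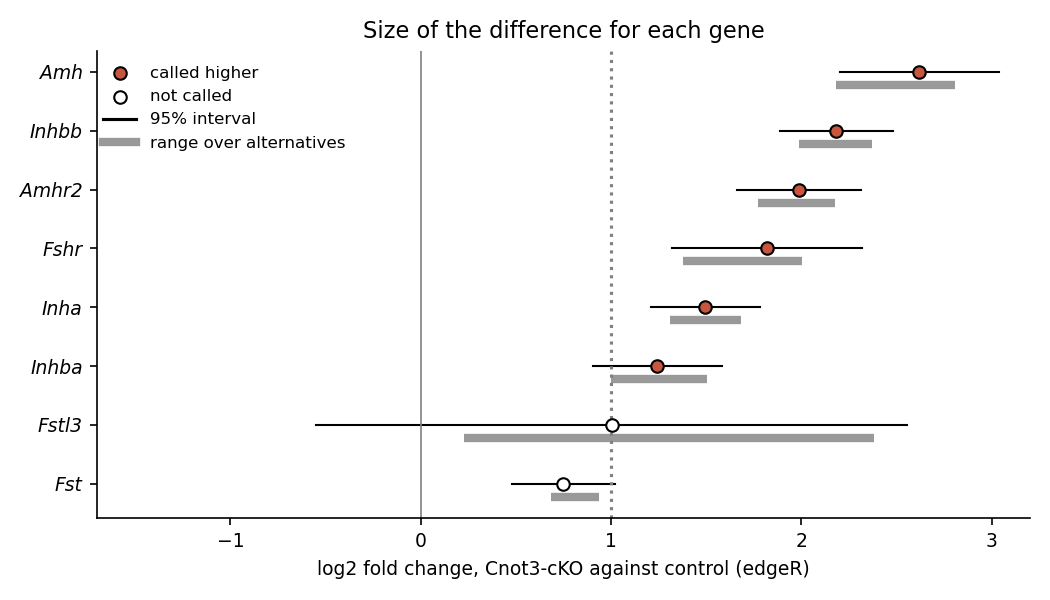
log2 fold change of *Cnot3*-cKO against control from edgeR for the 8 genes (points), with 95% intervals (black lines), the range over alternative settings (grey bars) and the 2-fold limit (dotted line). *Amh* is at 2.62 and *Fst* at 0.75, and the interval of *Fstl3* runs from -0.55 to 2.56.

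Per length, inhibin alpha was the most abundant of the 8 transcripts in both groups. *Inha* had 19.2 ± 1.87 RPKM (reads per 1000 bases of merged exons per 1000000 reads) in the controls against 54.2 ± 8.94 RPKM in *Cnot3*-cKO cells (SD, n = 2 per group). In controls it was followed by *Fst* (5.09 ± 0.0673 RPKM), *Inhba* (4.42 ± 1.10), *Amhr2* (4.37 ± 0.388), *Inhbb* (2.83 ± 0.0431), *Amh* (1.88 ± 0.0244), *Fshr* (1.12 ± 0.100) and *Fstl3* (0.162 ± 0.143), each mean ± SD of 2 libraries in RPKM. *Fst*, *Inhba* and *Amhr2* did not differ from each other beyond the spread of *Inhba*. In *Cnot3*-cKO cells the order was *Inha*, *Amhr2* (17.3 ± 0.0818 RPKM), *Inhbb* (12.9 ± 1.55), *Amh* (11.5 ± 0.804), *Inhba* (10.4 ± 1.09), *Fst* (8.56 ± 0.270), *Fshr* (3.95 ± 0.0446) and *Fstl3* (0.327 ± 0.00248). The neighbours *Inhbb* and *Amh*, and *Amh* and *Inhba*, overlapped in their ranges over the 2 libraries, although *Inhbb* was above *Amh* and *Amh* above *Inhba* within each of them. *Fst* thus moved from the second place to the sixth. This depended on the gene model: with the length of the longest transcript *Fst* ranked 3 in *Cnot3*-cKO cells, at 13.4 RPKM.

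For several pairs of the 8 genes, the ratio within a library did not overlap between the groups. Complete separation is common with 2 libraries per group. Among single tested genes, 30.5% were separated upward in *Cnot3*-cKO cells and 28.6% downward. Those shares are for levels of single genes, and none was computed for ratios between genes. The pairs also share genes, so their ratios are not independent of each other. In controls *Inhba* exceeded *Inhbb* per length, with ratios of 1.81 and 1.30 in the individual libraries, and in *Cnot3*-cKO cells it was below *Inhbb*, with ratios of 0.821 and 0.803. The ratio of *Inhbb* to *Inha* was 0.160 and 0.136 in the controls against 0.246 and 0.231 in *Cnot3*-cKO cells. For *Inhba* to *Inha* the groups overlapped, at 0.290 and 0.177 against 0.202 and 0.185. Follistatin was lower relative to the activin subunits. The ratio of *Fst* to *Inhbb* was 1.79 and 1.80 in the controls against 0.710 and 0.626 in *Cnot3*-cKO cells, and the ratio of *Fst* to *Inhba* was 0.990 and 1.39 against 0.865 and 0.780. *Amh* relative to *Amhr2* was 0.453 and 0.407 in the controls against 0.635 and 0.696 in *Cnot3*-cKO cells. The ratio of *Amh* to *Inha* was 0.0979 ± 0.00827 in the controls against 0.215 ± 0.0206 in *Cnot3*-cKO cells (SD, n = 2 per group), whereas that of *Fshr* to *Inha* overlapped between the groups, at 0.0664 and 0.0509 against 0.0832 and 0.0648. These ratios were not tested, and their values depend on the annotated lengths although the comparison between groups does not.

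**Figure D3:**
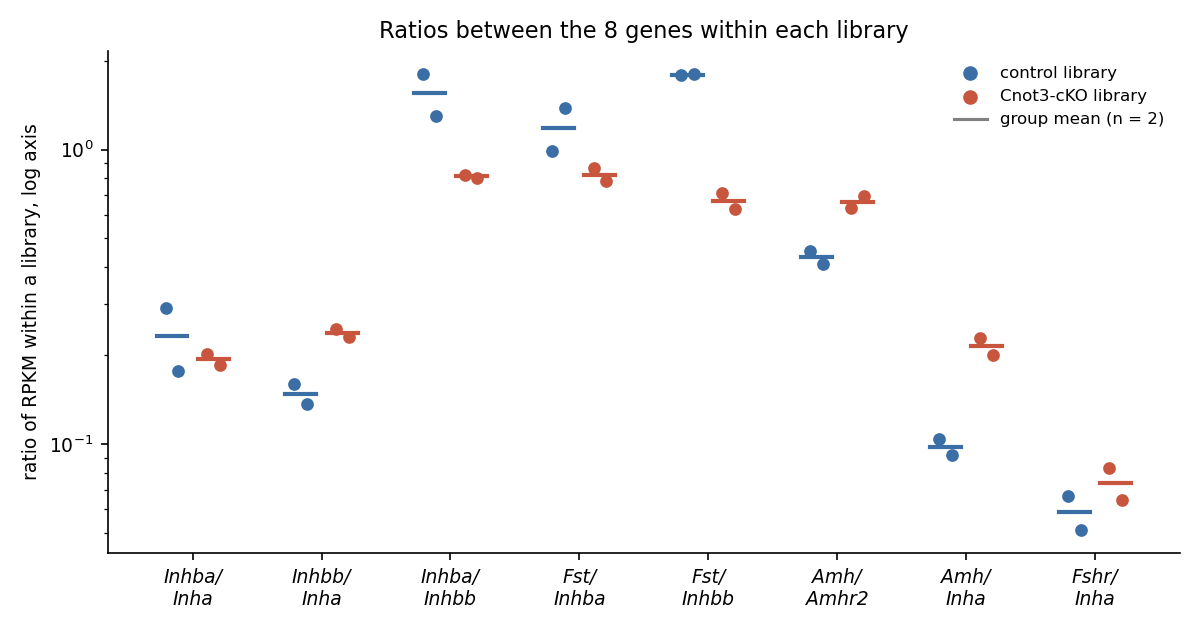
Ratio of RPKM of pairs of the 8 genes within each library (log axis), with control libraries in blue, *Cnot3*-cKO libraries in red and a line at the group mean (n = 2). *Fst* to *Inhbb* shows the widest gap between groups, from 1.80 in the mean of controls to 0.668 in *Cnot3*-cKO cells.

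The receptors and signal transducers that act with these hormones form short lists. Over all tested genes 4.03% were called higher and 0.735% lower, and in lists this short a count of 0 cannot be told apart from those shares. At an unadjusted p under 0.05 in the same edgeR test, 4164 of the 23952 tested genes were higher and 3695 lower. Counts at that limit, here and for the marker lists below, are to be read beside these. Activins bind the type II receptors ACVR2A and ACVR2B, which recruit ACVR1B or ACVR1C, and inhibin binds through betaglycan, encoded by *Tgfbr3*. Of the 6 tested genes of this list, 0 were called higher and 1 lower by edgeR (1 in each direction at an unadjusted p under 0.05, and 0 and 1 by DESeq2). The lower gene was *Acvr2b*, which had 51.2 and 59.8 CPM in the controls against 23.6 and 27.4 CPM in *Cnot3*-cKO cells (log2 fold change -1.12, standard error 0.13, edgeR adjusted p = 1.19e-04). Both *Cnot3*-cKO libraries were well below both controls. It was not called when libraries were scaled to pan-germ cell markers or when the test was made against a 2-fold change. *Acvr2a* had 51.1 and 50.01 CPM against 45.9 and 48.0 CPM, and the median of the list was 0.30.

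AMHR2 signals with the type I receptors ACVR1, BMPR1A and BMPR1B, and then through SMAD1, SMAD5 and SMAD9, while activins act through SMAD2 and SMAD3. Of the 3 type I receptor genes, 0 were called by edgeR, 0 by DESeq2 and 0 at an unadjusted p under 0.05. *Bmpr1a* was the most abundant of them, at 267 and 261 CPM in the controls against 243 and 243 CPM in *Cnot3*-cKO cells. Of the 8 SMAD genes, 0 were called by edgeR and 0 by DESeq2, and at an unadjusted p under 0.05 there were 1 higher and 2 lower. *Smad1* had a log2 fold change of -0.56 (edgeR adjusted p = 0.00464), within the 2-fold limit, and *Smad2* one of 0.13 (adjusted p = 0.310). The medians were -0.12 over the type I receptors and -0.08 over the SMAD genes.

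Other ligands and modulators of this branch were few. Of 6 listed genes 3 were tested, with 0 called higher and 1 lower by edgeR (1 and 1 at an unadjusted p under 0.05, and 0 and 1 by DESeq2), and a median of 0.15. *Gdf11*, an activin-like ligand that follistatin also binds, had 9.16 and 10.5 CPM in the controls against 4.37 and 5.17 CPM in *Cnot3*-cKO cells (log2 fold change -1.04, standard error 0.22, edgeR adjusted p = 0.00505), near the 2-fold limit. The further subunit genes *Inhbc* and *Inhbe* had at most 9 and 14 reads in any library.

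The gonadotropin subunit genes *Fshb*, *Lhb* and *Cga* had 0 reads in all 4 libraries, which allows up to 0.0713 to 0.132 CPM (3 counts per library, counting error only). *Lhcgr*, the receptor for luteinizing hormone and a Leydig cell gene, had 14.8 and 10.2 CPM in the controls against 35.5 and 38.8 CPM in *Cnot3*-cKO cells (log2 fold change 1.57, standard error 0.18, edgeR adjusted p = 9.05e-05). Of 14 genes of signalling downstream of FSHR, 3 were called higher and 0 lower by edgeR, 5 were higher and 3 lower at an unadjusted p under 0.05, DESeq2 called 3 and 0, and the median was 0.09. Those called higher were *Arrb1* (log2 fold change 1.17), a beta-arrestin, and *Rapgef3* (1.18) and *Rapgef4* (1.21), which are EPAC exchange factors activated by cyclic AMP. Without control replicate 2, 1 gene of the list was called higher. *Prkaca*, which encodes a catalytic subunit of protein kinase A, had a log2 fold change of -0.67 (edgeR adjusted p = 9.02e-04), within the 2-fold limit. In the other direction *Gnas*, also of this list, had one of 0.96 (edgeR adjusted p = 0.00842), within the same limit.

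Transcription factors and cofactors known to regulate *Amh* were mostly called higher. Of 9 genes 6 were called higher and 0 lower by edgeR (7 and 1 at an unadjusted p under 0.05, and 6 and 0 by DESeq2), with a median of 1.59. *Gata4* (log2 fold change 1.59), *Nr5a1* (1.54), *Sox9* (2.23) and *Wt1* (1.66) had the smallest p. *Sox9*, which starts *Amh* expression in the fetal testis, had 3.80 and 3.64 CPM in the controls against 18.8 and 16.1 CPM in *Cnot3*-cKO cells. *Dmrt1*, which germ cells also express, had 375 and 442 CPM in the controls against 309 and 328 CPM in *Cnot3*-cKO cells.

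**Figure D4:**
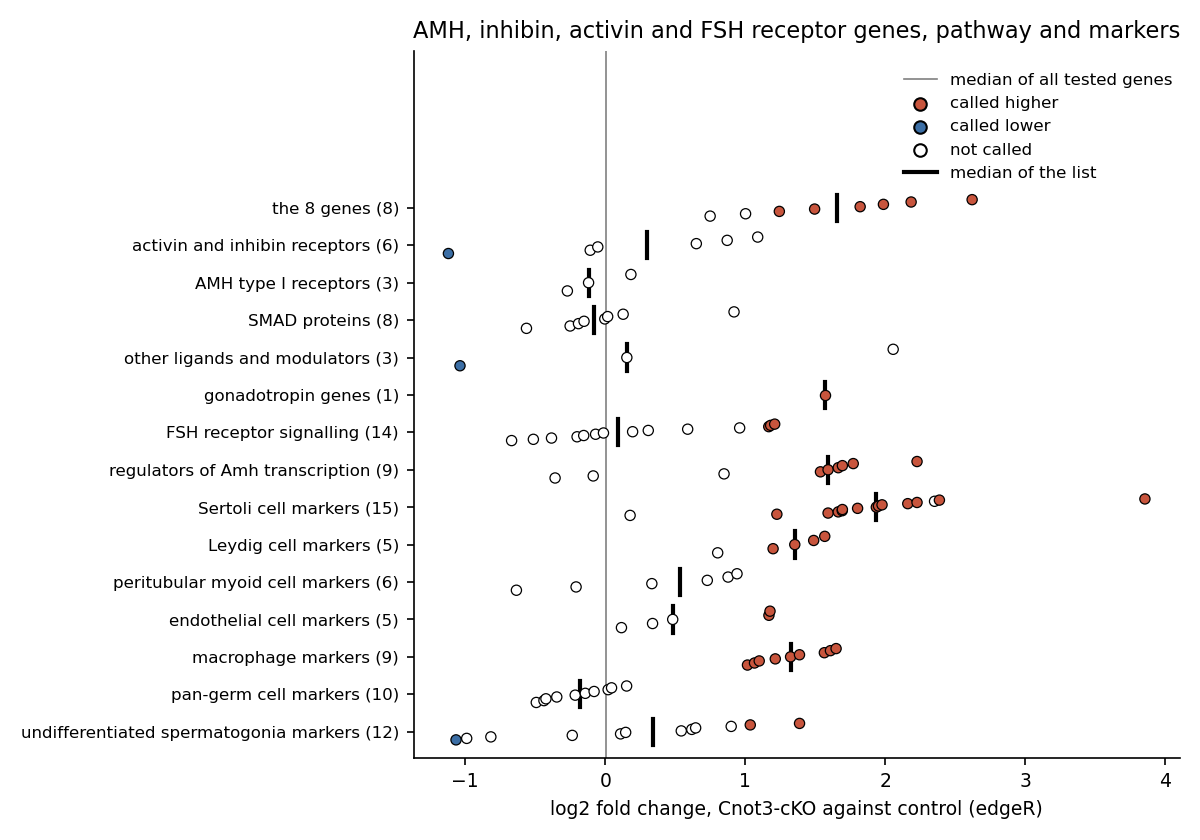
log2 fold change (edgeR) of each tested gene of the lists, with the number tested in parentheses, genes called higher in red, called lower in blue and not called in white, the median of each list as a bar and the median of all tested genes as a grey line. The median of the 8 genes (1.66) lies among those of the Sertoli cell markers (1.94), the regulators of *Amh* (1.59), the Leydig cell markers (1.35) and the macrophage markers (1.32), while the medians of the activin and inhibin receptors (0.30) and SMAD genes (-0.08) lie nearer 0.

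The lists of cell type markers differed in how many of their genes were called. The sorted cells expressed germ cell genes in both groups, with 703 to 754 CPM of *Ddx4* in the 4 libraries. None of the 10 pan-germ cell markers was called by edgeR or by DESeq2, 0 were higher and 5 lower at an unadjusted p under 0.05, and their median was -0.18. For 7 of the 10 both *Cnot3*-cKO libraries lay below both controls (28.6% of all tested genes), and for 1 above. *Mov10l1* (log2 fold change -0.49), *Piwil2* (-0.44) and *Sall4* (-0.42) were lower with an edgeR adjusted p under 0.01, within the 2-fold limit. *Dazl* was the most abundant, at 2339 and 2634 CPM against 2024 and 2263 CPM. Of 12 markers of undifferentiated spermatogonia 2 were called higher (*Id4*, log2 fold change 1.04, and *Eomes*, 1.39) and 1 lower (*Nanos3*, -1.07), with a median of 0.34. *Zbtb16* was the most abundant by its mean over the 4 libraries, at 436 and 364 CPM against 243 and 212 CPM. *Id4*, the gene behind the sorting reporter, had 20.6 and 19.7 CPM in the controls against 36.3 and 46.3 CPM in *Cnot3*-cKO cells.

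Sertoli cell markers outside the 8 genes were at 1 read or more in every library, and most of them were called higher. Of 15, 13 were called higher and 0 lower by edgeR (14 and 0 at an unadjusted p under 0.05, and 14 and 0 by DESeq2), with a median log2 fold change of 1.94, and 4 of them are also among the factors for *Amh*. Their summed level was 476 to 486 CPM in the controls against 1500 to 1525 CPM in *Cnot3*-cKO cells. *Clu*, the most abundant by its mean over the 4 libraries, had 152 and 145 CPM against 479 and 479 CPM, and *Kitl* (log2 fold change 2.16), *Aard* (1.98) and *Gja1* (1.80) followed by p. The part of these markers in the values of the 8 genes was not tested, and in sorted bulk RNA more Sertoli cells and more of these transcripts per cell cannot be told apart.

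Set against the Sertoli cell markers of the same library, the 8 genes split. The geometric mean of the 15 markers was 9.54 and 9.56 CPM in the controls against 36.7 and 36.6 CPM in *Cnot3*-cKO cells. The log2 level of *Amh* relative to this mean was -1.62 and -1.60 in the controls against -1.002 and -0.86 in *Cnot3*-cKO cells, a difference of 0.68. *Inhbb* differed in the same direction by 0.24. *Amhr2* was at -0.21 and -0.04 against -0.08 and -0.07, with overlapping groups, as for *Fstl3*, and *Fshr* differed by -0.12, less than the gap between its own control libraries. *Inha* (-0.45), *Inhba* (-0.68) and *Fst* (-1.19) were lower relative to the markers in both *Cnot3*-cKO libraries. The markers themselves spread widely around their mean, with log2 fold changes from 0.18 to 3.85. Those of the 8 genes, from 0.75 to 2.62, all lie inside that range. These differences from the marker mean are a description without a test, and do not set the 8 genes apart from single markers.

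**Figure D5:**
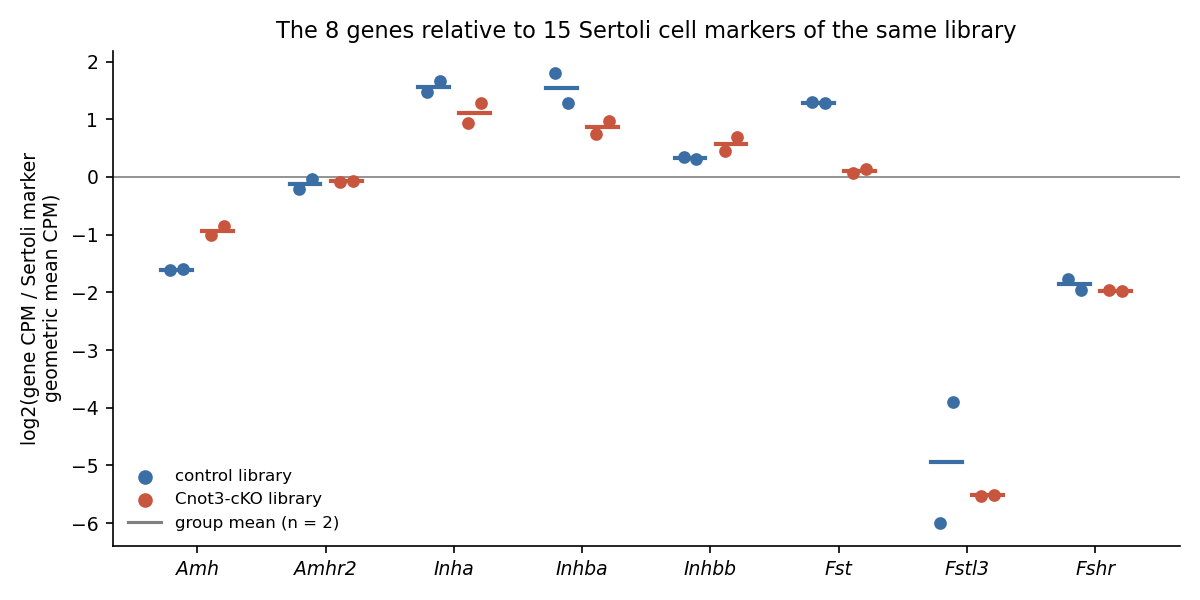
log2 of the CPM of each of the 8 genes over the geometric mean CPM of 15 Sertoli cell markers in the same library, with control libraries in blue, *Cnot3*-cKO libraries in red and a line at the group mean (n = 2). *Amh* is above its controls by 0.68 and *Fst* below its controls by 1.19, and *Amhr2* overlaps.

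Markers of other somatic cells were not equal. *Inha* and *Amhr2* are also known from Leydig cells, and of 6 Leydig cell markers 5 were tested and 4 called higher (5 at an unadjusted p under 0.05, 4 by DESeq2, median 1.35), while *Insl3* had 0 reads in all 4 libraries. *Hsd3b1*, the most abundant, had 287 and 248 CPM against 656 and 712 CPM, and *Cyp11a1* (log2 fold change 1.20), *Lhcgr* (1.57) and *Cyp17a1* (1.49) were also called. Their summed level was 322 to 368 CPM in the controls against 831 to 896 CPM in *Cnot3*-cKO cells. Of 9 macrophage markers 9 were called higher (median 1.32), led in level by *Mrc1* (96.8 and 55.2 CPM against 218 and 180 CPM), with a sum of 179 to 275 CPM in the controls against 499 to 611 CPM in *Cnot3*-cKO cells. *C1qc* (log2 fold change 1.65), *C1qa* (1.56), *Lyz2* (1.10) and *Mrc1* (1.39) had the smallest p of the list, and without control replicate 2 the list had 4 calls. Of 6 peritubular myoid cell markers 0 were called by edgeR or DESeq2 (1 higher and 0 lower at an unadjusted p under 0.05, median 0.53), and their sum was 13.9 to 16.5 CPM in the controls against 20.4 to 25.7 CPM in *Cnot3*-cKO cells. The most abundant of them by its mean over the 4 libraries was *Acta2*, at 5.41 and 5.66 CPM against 9.14 and 12.1 CPM. Of 6 endothelial cell markers 5 were tested and 2 called higher, *Pecam1* (log2 fold change 1.18) and *Kdr* (1.17), with a median of 0.48 and a sum of 30.2 to 31.0 CPM in the controls against 42.4 to 51.2 CPM in *Cnot3*-cKO cells. *Tek* was the most abundant of these, at 10.1 and 7.63 CPM against 11.3 and 13.4 CPM. The part of these cell types in the values of the 8 genes was not tested.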

How the data were processed

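ID4-EGFP+ cells of 2 control and 2 *Cnot3*-cKO libraries were compared. Per the labels and the methods of the study, the authors kept reads of sufficient quality, aligned them to mm10 with STAR and deposited read counts per GENCODE M24 gene from featureCounts, not normalized. Multi-mapping and strand options are not given in the sources used here. Counts were analysed with edgeR 4.0.16 in R 4.3.3 (TMM scaling, default expression filter, quasi-likelihood F test, no covariates). Calls used the limits the study used, a 2-fold change and an adjusted p of 0.01. DESeq2 1.42.0 was an alternative. Standard errors are the log2 fold change divided by the root of F. RPKM used merged exon lengths of GENCODE M21 on GRCm38. Replicates differed beyond sampling noise (chi-square per degree of freedom of 20.7 in controls and 6.77 in *Cnot3*-cKO).

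The 8 genes and the lists were chosen with earlier results of these data known. All 8 genes were named, with the called genes of each list (up to 4 by p), the most abundant marker, genes within 5000 bases and the 3 genes of most similar profile. *Acvr2a*, *Smad1*, *Smad2*, *Prkaca*, *Dmrt1*, *Ddx4*, *Inhbc*, *Inhbe*, *Bmpr1a*, *Insl3* and the gonadotropin subunit genes were named after their values were seen. The same holds for *Gnas*, *Mov10l1*, *Piwil2* and *Sall4*. The test was checked on simulated counts with a single dispersion for all genes and 4-fold changes in 200 genes. It called 200 of these in the right direction and 0 unchanged genes. This check does not cover smaller changes or dispersions that differ between genes. Thinning every library to 22192964 reads was added after the data had been seen. Figures were drawn with matplotlib 3.10.9 in Python 3.11.15.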

Additional observations from a re-analysis of the deposited data

How the results depend on the processing

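No alternative reversed the sign of any of the 8 genes, and *Amh*, *Amhr2* and *Inhbb* kept their calls under all 18. Leaving out 1 library gave 5 to 6 genes called higher of the 8 and log2 fold changes of 0.9986 to 1.51 for *Inhba*, 1.31 to 1.64 for *Inha*, 2.54 to 2.68 for *Amh* and -1.59 to -1.37 for *Cnot3*. Over the series it gave 217 to 271 genes lower against 176, for the ligands and modulators 0 to 1 lower, for FSH receptor signalling 1 to 3 higher, for myoid 0 to 1, endothelial 1 to 2 and macrophage markers 4 to 9 higher, and for undifferentiated spermatogonia markers 0 to 2 higher and 1 to 2 lower. The lowest value came without control replicate 2 for the 8 genes, FSH receptor signalling and macrophage markers, without control replicate 2 or *Cnot3*-cKO replicate 1 for the ligands, and without *Cnot3*-cKO replicate 1 for endothelial markers. Leaving out *Cnot3*-cKO replicate 1 gave the myoid call, and leaving out *Cnot3*-cKO replicate 2 gave the 271 lower genes and the 0 higher and 2 lower spermatogonia markers (1 higher without control replicate 2).

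The test against a fold change of 2 (glmTreat) asks for more by construction. It called 3 of the 8 genes, *Amh*, *Amhr2* and *Inhbb*, and 87 genes higher and 5 lower in all. *Cnot3* (-1.48, adjusted p = 0.0346) was not called, regulators of *Amh* had 1 call, and the activin and inhibin receptors, ligands, gonadotropin genes, FSH receptor signalling, Leydig, endothelial, macrophage and undifferentiated spermatogonia lists had 0. With no fold change limit 7 of the 8 genes were called, *Fst* included, and 1488 genes higher and 1125 lower, with 1 activin or inhibin receptor and 1 myoid marker higher, 1 SMAD gene, 1 FSH receptor signalling gene and 3 pan-germ cell markers lower, and 5 undifferentiated spermatogonia markers higher and 2 lower. An adjusted p under 0.05 gave 1452 higher and 284 lower. DESeq2 with a prior gave 565 higher and 78 lower, 0 ligands lower, 1 FSH receptor signalling gene, 0 endothelial and 4 macrophage markers higher, and 0 undifferentiated spermatogonia markers in either direction.

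Scaling to pan-germ cell markers moved the median of all genes from 0.01 to 0.20. It called 80 genes lower, 0 receptors, 0 ligands and 0 undifferentiated spermatogonia markers lower, and 1 myoid marker higher. Library size only called 0 ligands and 0 undifferentiated spermatogonia markers lower and 1 myoid marker higher, and upper quartile scaling 0 ligands lower. No expression filter gave 285 genes lower. For these settings the cause was not tested. Thinning, added later, left 6 of the 8 genes called. A mean count of at least 50 leaves out *Fstl3*, and DESeq2 gave it no adjusted p.

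The replicate numbers pair libraries by number alone, and same-numbered libraries had a correlation of deviations of 0.0822 (15519 genes). Fitting the replicate block gave 1155 higher and 217 lower genes, and 6 of the 8 genes were called.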

Other observations

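*Obsl1*, which encodes a cytoskeletal adaptor and starts beside *Inha* on the opposite strand, 624 bases upstream, had 25.9 and 27.3 CPM in the controls against 79.8 and 87.4 CPM in *Cnot3*-cKO cells. The fitted log2 fold change of *Obsl1* was 1.65 (standard error 0.11, edgeR adjusted p = 2.18e-06), beside 1.495 for *Inha*. Other genes within 5000 bases of the 8 genes were not called, namely *Sf3a2*, *Jsrp1* (log2 fold change 0.96, edgeR adjusted p = 0.0416), *Prr13* (1.15, edgeR adjusted p = 0.0344) and *Gm48444*, an antisense gene in *Inhba* with 0 to 15 reads. *Prss57*, *Gm47040*, *B230303A05Rik*, *Gm15181* and *Gm24128* were too low to be tested.

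The genes whose centred log2 CPM lay nearest to the mean profile of the 8 genes over the 4 libraries were *Lrrk2* (root mean square difference 0.03), *Obsl1* (0.03) and *Gstt2* (0.04), out of 15512 genes compared. With 4 libraries this is a description, with no p.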
